A study of Mus musculus with 14 samples.

Results

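The mitochondrial ribosomal protein genes are the nuclear genes that encode the protein parts of the ribosome inside mitochondria. They were taken by name as every gene called Mrps (small subunit) or Mrpl (large subunit) followed by a number and at most 1 letter, with pseudogenes left out. This gave 78 genes, 29 of the small and 49 of the large subunit, among the 47729 gene identifiers of the deposited tables. All 78 passed the filter on low counts, which kept 14279 genes. The name is a guide to the subunit and not a proof of it, since Mrps18a sits in the large subunit and Mrps36 was later assigned to the alpha-ketoglutarate dehydrogenase complex.

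The data are 14 SMART-Seq2 libraries (full-length cDNA from small numbers of cells), 1 library per retina, of microglia sorted as Fcrls+ CD11b+ Ly6c- cells. All came from wild type C57BL/6 mice aged 12 weeks, and a sort collected 100 to 600 cells. The groups are microbead-injected retinas, which the labels describe as glaucoma (3 libraries), retinas contralateral to a microbead injection (3), sham-injected retinas (4) and naive retinas (4). No label says that libraries with the same number share a mouse, so the tests treat the retinas as independent and set changes against the spread between them. The contralateral retinas come from microbead-injected mice, and whether any shares a mouse with a microbead library is not given. The labels name no batch.

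The mitochondrial ribosome translates the few proteins that the mitochondrial genome encodes, all of them core subunits of the respiratory chain and ATP synthase. Its RNA is made inside the organelle, whereas its proteins are made in the cytosol and imported. It holds proteins with bacterial counterparts beside proteins found only in mitochondria, and it is assembled on the matrix side of the inner membrane. Microglia, the resident macrophages of the retina, can shift between respiration and glycolysis as they change state.

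Promoters were read first, as a feature the members may share that their names do not use. RefSeq gave 300 bases around the start of 69 of the 78 members on build GRCm38.p6, from 250 bases before to 50 bases after the start. Of these, 26 (37.7%) held CCGGAAG, the core of the site of ETS factors such as GABPA, against 9.93% of 27025 genes. The motif of NRF1, which is GCGCA, any base and GCGC, was in 13 (18.8%) against 5.19%, and AAGATGG, bound by YY1, was in 13 (18.8%) against 7.28%. A TATAAA box was in 5 (7.25%) against 15.7%. At least 1 of the ETS, NRF1 and YY1 motifs was in 43 (62.3%), against 20.03% of genes. Both strands were searched, and a match is a description of the letters, not a site in use.

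The next 4 promoters show these motifs, in capitals, on the plus strand. There CTTCCGG is the reverse complement of the ETS motif and CCATCTT that of the YY1 motif. GCGCCTGCGC is the reverse complement of GCGCAGGCGC, a form of the NRF1 motif. Mrpl52, the member with the highest mean FPKM, has 2 ETS motifs and a YY1 motif at chr14:54426659-54426958. Mrpl30, one of the members that stood highest in microbead retinas, has an NRF1 motif at chr1:37890227-37890526. Mrps18a has an ETS and a YY1 motif at chr17:46110754-46111053. Mrps11 has a YY1 motif at chr7:78782881-78783180 and starts 42 bases from Mrpl46 on the opposite strand, the only pair of members within 100000 bases of each other.
Mrpl52: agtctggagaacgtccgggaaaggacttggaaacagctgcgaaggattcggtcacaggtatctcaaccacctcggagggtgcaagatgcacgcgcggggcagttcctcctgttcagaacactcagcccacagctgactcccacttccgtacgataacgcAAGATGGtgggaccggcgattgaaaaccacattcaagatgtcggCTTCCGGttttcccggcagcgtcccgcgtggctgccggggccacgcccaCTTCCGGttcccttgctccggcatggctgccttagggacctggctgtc
Mrpl30: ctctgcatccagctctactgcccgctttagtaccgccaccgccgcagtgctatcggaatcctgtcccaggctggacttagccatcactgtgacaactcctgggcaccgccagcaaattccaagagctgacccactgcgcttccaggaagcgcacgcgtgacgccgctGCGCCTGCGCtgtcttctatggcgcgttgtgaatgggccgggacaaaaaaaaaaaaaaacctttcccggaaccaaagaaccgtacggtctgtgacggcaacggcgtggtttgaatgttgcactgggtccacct
Mrps18a: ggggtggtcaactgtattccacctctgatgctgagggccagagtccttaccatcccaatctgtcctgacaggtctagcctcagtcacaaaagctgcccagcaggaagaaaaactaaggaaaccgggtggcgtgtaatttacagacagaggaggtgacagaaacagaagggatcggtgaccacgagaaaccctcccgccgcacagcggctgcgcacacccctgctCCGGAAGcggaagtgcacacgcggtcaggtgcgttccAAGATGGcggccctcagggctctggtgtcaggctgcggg
Mrps11: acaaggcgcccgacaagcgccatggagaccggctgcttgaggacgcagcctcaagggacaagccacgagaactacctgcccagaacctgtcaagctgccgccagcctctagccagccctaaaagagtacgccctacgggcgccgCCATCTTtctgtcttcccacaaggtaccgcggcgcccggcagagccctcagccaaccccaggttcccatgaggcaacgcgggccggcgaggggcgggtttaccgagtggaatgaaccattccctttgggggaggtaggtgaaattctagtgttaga

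The libraries held 1.34 to 14 M reads. Microbead 1, with 1.34 M reads, and contralateral 2, with 7.60 M, stood apart, with 10167 and 10306 genes read against 13472 to 16531 in the others. The summed CPM of 11 identifiers of microglia markers was 15024 to 23740 in microglia of microbead retinas, 20249 to 38920 in those of contralateral retinas, 31068 to 36139 of sham retinas and 21333 to 35673 of naive retinas. The sum of 12 rod genes was 389 to 3643 CPM in microbead retinas, 2051 to 3292 in contralateral retinas, 875 to 1728 in sham retinas and 243 to 3363 in naive retinas. The 10 monocyte and macrophage genes summed to 79.8 to 200 CPM in the microbead libraries, 2.24 to 186 in the contralateral, 11.1 to 116 in the sham and 14.5 to 48.7 in the naive ones, with Chil3 and Ly6c2 at 0 in all. The 6 border macrophage genes summed to 139 to 191 CPM in microglia of microbead retinas, 625 to 853 in those of contralateral retinas, 401 to 599 of sham retinas and 371 to 559 of naive retinas. The part of these cells in the results below was not tested, and in bulk samples fewer cells of a type and less RNA per cell cannot be told apart.

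Levels between genes are compared as FPKM, which the authors scaled to transcript length. Mean FPKM over the 14 libraries ran from 3.58 for Mrpl1 to 221 for Mrpl52, with a median of 36.7 over the members. Mrpl52, a large subunit protein, had 454, 181 and 273 FPKM in microbead retinas, 265, 120 and 126 in contralateral retinas, 185, 246, 300 and 228 in sham retinas and 253, 151, 139 and 175 in naive retinas. It was the highest member by group mean in all 4 groups, although its libraries overlapped between every pair of groups. Mrpl17, the counterpart of a bacterial protein near the exit of the large subunit, was second with a mean of 140 FPKM. Its values were 398, 128 and 167 in the microbead libraries, 107, 0 and 108 in the contralateral, 165, 77.8, 117 and 119 in the sham and 74.3, 134, 112 and 255 in the naive ones. Mrps21, the shortest member at 433 bases, came next with 132 FPKM, followed by Mrpl30 with 93.2 and Mrpl42 with 91.6. The longest members, Mrpl19 at 3753 bases and Mrpl11 at 2882 bases, had means of 5.14 and 6.65 FPKM. Mrpl11 belongs to the base of the stalk where translation factors bind.

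Several members with known roles had levels in every group. Mrpl12, a stalk protein that also binds the mitochondrial RNA polymerase, averaged 16.6 ± 14.5 FPKM in microglia of microbead retinas, 46.9 ± 35.9 in those of contralateral retinas, 35.5 ± 17.3 of sham retinas and 28.4 ± 22.4 of naive retinas (SD, n = 3, 3, 4 and 4). Mrps12, part of the decoding centre, was at 0, 72.5 and 33.2 FPKM in microbead retinas, 24.2, 0 and 32.5 in contralateral retinas, 31.7, 57.2, 81.5 and 31.9 in sham retinas and 32.8, 35.6, 50 and 0.77 in naive retinas. The zeros of Mrps12 fell in microbead 1 and contralateral 2, the libraries with the fewest genes. Mrpl58, a peptidyl-tRNA hydrolase built into the large subunit, averaged 87.8 ± 56.6, 48.7 ± 45.5, 69.9 ± 30.6 and 59.8 ± 29.6 FPKM in microbead, contralateral, sham and naive libraries. Mrpl44, which resembles RNase III, averaged 40.2 ± 21.7, 14.2 ± 3.65, 28.7 ± 14.5 and 26.1 ± 7.88 FPKM in the same groups. Mrps36 averaged 52.4 ± 31.1, 13.6 ± 9.36, 48.4 ± 19.6 and 24.9 ± 8.46 FPKM. For Mrpl12 and Mrpl58 the largest SD exceeds the gap between any pair of group means, whereas for Mrpl44 and Mrps36 the gap between the microbead and contralateral means is the larger.

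The 3 mouse relatives of the bacterial protein S18 were all read. Mrps18a averaged 35.4 ± 18.6 FPKM in the microbead libraries, 68.2 ± 64.99 in the contralateral, 56.0 ± 22.4 in the sham and 43.8 ± 21.7 in the naive ones. Mrps18b averaged 53.3 ± 69.5, 77.0 ± 25.9, 63.0 ± 28.2 and 52.3 ± 15.3 FPKM in microbead, contralateral, sham and naive libraries, with 0 in microbead 1 and 132 in microbead 3. Mrps18c averaged 96.7 ± 73.8, 47.1 ± 39.1, 67.3 ± 24.8 and 61.0 ± 33.4 FPKM. Mrps18c had the highest mean of the 3 in microbead, sham and naive libraries, and in every group the largest of their SDs exceeds the gaps between their means.

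Detection was uneven. Of the members, 49 had reads in all 14 libraries and 29 were at 0 in at least 1, which made 38 of 1092 values (3.48%). Microbead libraries 1, 2 and 3 had 12, 1 and 1 members at 0, and contralateral libraries 1, 2 and 3 had 2, 20 and 0. No sham library had a member at 0, and of the naive libraries naive 4 had 2. No member was at 0 throughout a group. The share at 0 was 15.4% in microbead 1 and 25.6% in contralateral 2, against 17.8% and 23.2% of the 7163 genes in the members' range of mean CPM. The share of members at 0 in these libraries thus stood near that of the genes within this range, which were not matched to the members by level.

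**Figure D1:**
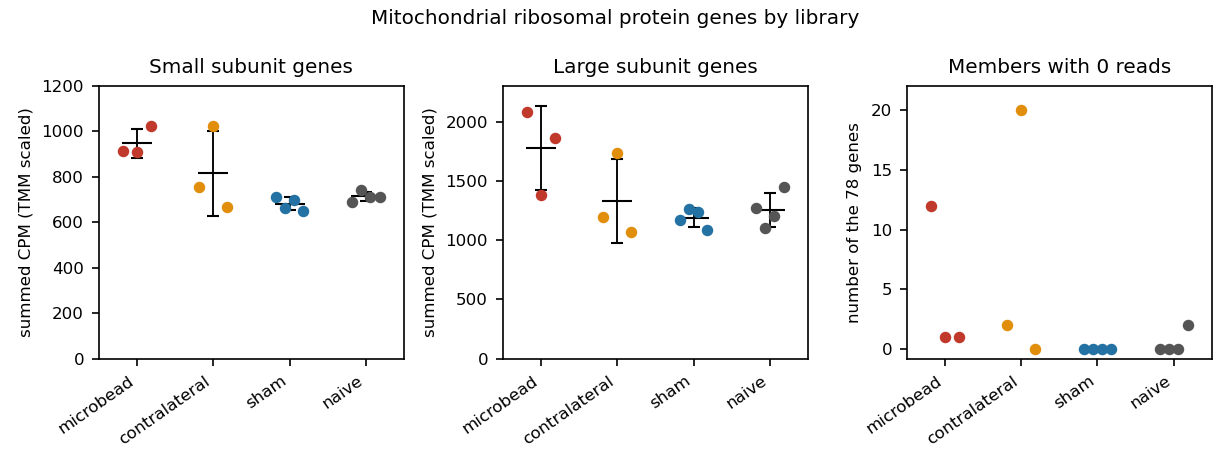
Summed CPM (TMM scaled) of the 29 small subunit and the 49 large subunit genes, and the number of the 78 members with 0 reads, on the y axes, with the 4 groups on the x axis. Points are libraries, and the line and bar give the mean and SD. With this scaling, all microbead libraries lie above all sham and naive libraries for the small subunit. For the large subunit microbead 2 lies within the naive range. Without it, microbead 2 is not above all naive libraries for the small subunit.

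The members together took a larger part of the reads in 2 of the 3 microbead libraries. Their share of all reads was 0.311, 0.193 and 0.236% in microbead retinas, 0.170, 0.230 and 0.194% in contralateral retinas, 0.190 to 0.203% in sham retinas and 0.202 to 0.220% in naive retinas. After TMM scaling, which corrects for the makeup of a library, the sum was 2994, 2293 and 2887 CPM in microglia of microbead retinas, 1947, 2762 and 1735 in those of contralateral retinas, 1732 to 1938 of sham retinas and 1843 to 2155 of naive retinas. Without that scaling microbead 2 lay within the sham range and below the naive range, so the order of this library rests on the scaling. The sums are given with no test, since the members were chosen with earlier results known.

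By subunit, after TMM scaling all microbead libraries lay above all sham and naive libraries for the small subunit. For the large subunit microbead 2 lay within the naive range. Without that scaling microbead 2 was not above all naive libraries for the small subunit either, so this separation rests on the scaling. The small subunit genes summed to 949 ± 63.8 CPM in microbead retinas, 816 ± 187 in contralateral retinas, 681 ± 28.7 in sham retinas and 714 ± 21.8 in naive retinas (SD, n = 3, 3, 4 and 4). The large subunit genes summed to 1776 ± 356, 1332 ± 355, 1190 ± 82.2 and 1255 ± 145 CPM in the same groups. The ratio of large to small was 1.52 to 2.27 in the microbead libraries, 1.58 to 1.69 in the contralateral, 1.65 to 1.91 in the sham and 1.48 to 2.03 in the naive ones, so the groups overlapped. The reads were more concentrated in contralateral 2 and microbead 1, where the 5 leading members took 32.8% and 22.8% of the members' reads, against 14.8 to 18.9% in the other libraries. Within groups, the median coefficient of variation of the members was 64.0% in microbead and 83.4% in contralateral libraries, and 39.1% in sham and 42.1% in naive libraries.

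**Figure D2:**
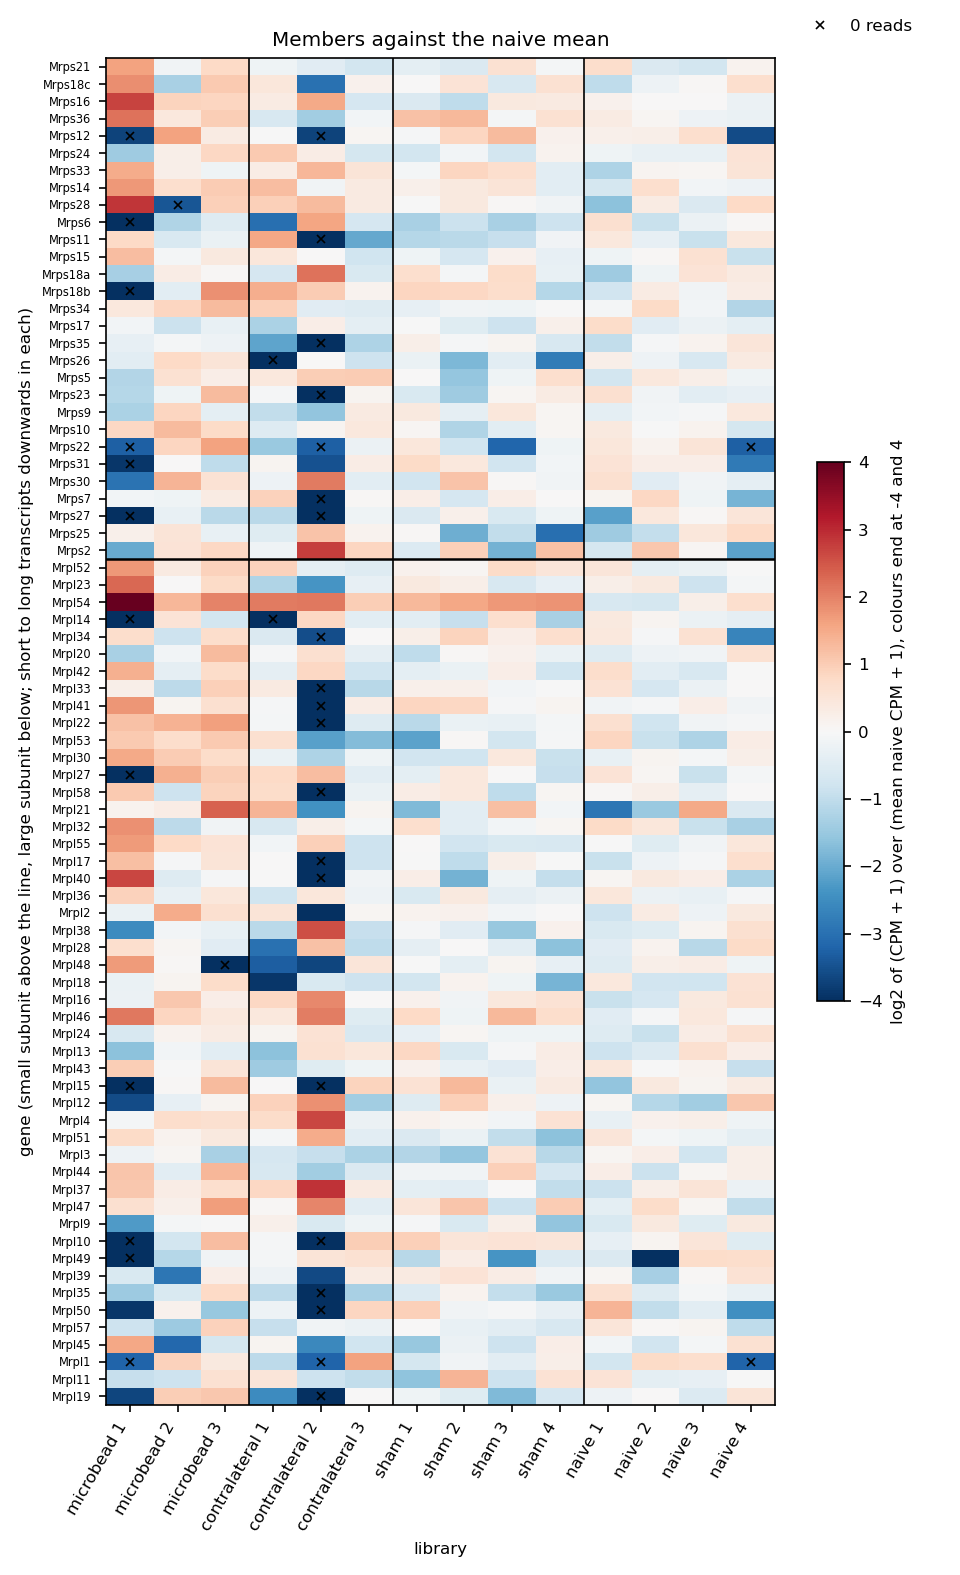
Each row is 1 of the 78 members, small subunit above the line and large subunit below, ordered from short to long transcripts, and each column is 1 of the 14 libraries. Colour is the log2 of CPM + 1 over the mean naive CPM + 1, crosses mark 0 reads, and the crosses gather in microbead 1 (12) and contralateral 2 (20).

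Microbead retinas were compared with sham retinas to ask how microglia differ after the beads rather than after an injection alone. The median log2 fold change of the members was 0.56, against -0.12 over all 14279 genes, and 57 of 78 stood higher, against 45.7% of all genes. No member passed the test, edgeR's quasi-likelihood test with Benjamini-Hochberg adjustment over all genes, where the smallest adjusted p was 0.425 and 0.014% of all genes passed. At an unadjusted p under 0.05, 5 members were higher and 0 lower, against 4.48% and 5.27% of all genes. In 10 members every microbead library was above every sham library, against 5.11% of all genes, and in 0 was it below, against 7.08%. DESeq2 called 1 member, Mrpl30, and limma voom 0, while they called 3.13% and 0.623% of all genes. Without microbead 1 the quasi-likelihood test left 1 member at that p.

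Against naive retinas the median was 0.47, with -0.14 over all genes, and 59 of 78 members stood higher, against 45% of all genes. Again 0 members passed, the smallest adjusted p being 0.0819 for Mrpl54, while 0.21% of all genes passed. At an unadjusted p under 0.05, 2 were higher and 0 lower, against 4.72% and 5.81% of all genes, a smaller share than the background. In 9 members the microbead libraries were above all naive libraries, against 4.85% of all genes, and in 0 below, against 6.98%. DESeq2 called 1 member, Mrpl54, and limma voom 0, where 3.87% and 1.43% of all genes were called. Without microbead 1 the quasi-likelihood test left 0 at that p. The sham and naive comparisons use the same microbead libraries, so they are not independent of each other.

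The small subunit members had a median log2 fold change of 0.49 against sham and 0.40 against naive retinas, with 20 and 22 of 29 higher. The large subunit members had medians of 0.58 and 0.47, with 37 of 49 higher in each. The 44 members whose number falls in the bacterial series (Mrps up to 21, Mrpl up to 36) had medians of 0.35 and 0.30, and the 34 with later numbers, mostly proteins without a bacterial counterpart, 0.61 and 0.58. The interquartile range of all members' changes ran from -0.11 to 1.01 against sham and from 0.01 to 0.91 against naive. The differences between these classes were not tested. The median SE of a member's change was 0.94 against sham and 0.95 against naive.

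The small subunit members with the smallest p were Mrps10, Mrps14 and Mrps16, which all have bacterial counterparts. Mrps10 (chr17:47368887-47381417), in the head of the subunit, had 53.9, 73.8 and 51.2 CPM in microglia of microbead retinas, 20.7, 32.6 and 39.9 in those of contralateral retinas, 31.8, 12.4, 21.9 and 31.9 of sham retinas and 39.3, 29.4, 32.9 and 17.9 of naive retinas. With TMM scaling every microbead library was above all 11 others. Without it microbead 3 lay below contralateral 3. Against sham the log2 change was 1.28, or 2.43-fold (SE 0.59 on the log2 scale, adjusted p = 0.495), and it was 1.48 with the length trend described below removed.

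Mrps14 (chr1:160195215-160202170), also in the head, had 86.2, 41.1 and 51.4 CPM in microbead retinas, 60.7, 22.9 and 32.9 in contralateral retinas, 28.9, 33.5, 36.4 and 18.3 in sham retinas and 14.9, 40.7, 23.3 and 21.6 in naive retinas. With TMM scaling the microbead libraries lay above the sham and naive ones, by less than 1 CPM between microbead 2 and naive 2. Without it microbead 2 lay within the sham and naive ranges, so the separation rests on the scaling. Relative to naive it differed by 1.24 on the log2 scale (SE 0.60), which did not pass (adjusted p = 0.485). Mrps16 (chr14:20389304-20393634), whose loss in humans impairs the respiratory chain, had 84.7, 23.6 and 22.8 CPM in the microbead libraries, 15.4, 36.3 and 7.29 in the contralateral, 7.81, 5.55, 16.3 and 15.8 in the sham and 13.8, 12.4, 12.3 and 10.2 in the naive ones. Microbead 1 was far above the others, and the groups did not overlap with sham or naive. On the log2 scale the change was 1.93 against sham and 1.84 against naive (SE 0.86 for each), with adjusted p of 0.479 and 0.466, and without microbead 1 it was 1.00 and 0.91.

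Among large subunit members, Mrpl30 (chr1:37890477-37898535), with a bacterial counterpart and the NRF1 motif printed above, had 87.6, 62.2 and 50.6 CPM in microbead libraries. It had 25.1, 12.1 and 26.6 in contralateral, 17.3, 17.1, 40.7 and 15.7 in sham and 24.4, 32.4, 28.6 and 35.5 in naive libraries. With TMM scaling all microbead libraries were above all others, with 122, 558 and 576 reads behind them. Without that scaling microbead 3 lay below sham 3, so the separation from sham rests on it. The log2 change came to 1.55 against sham (SE 0.61) and 1.14 against naive (SE 0.60), and their adjusted p were 0.425 and 0.513. In DESeq2 the value against sham was called (adjusted p = 0.0418, and 0.0418 to 0.702 over the alternatives), and with the length trend removed the changes were 0.85 and 0.41.

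Mrpl54 (chr10:81264713-81266934), a large subunit protein specific to mitochondria, had the largest change. It had 190, 12.0 and 19.5 CPM in microglia of microbead retinas, 20.7, 21.4 and 9.15 in those of contralateral retinas, 11.6, 14, 16.3 and 17.0 of sham retinas and 2.30, 2.17, 5.01 and 7.15 of naive retinas. The naive libraries were the lowest 4 of the 14, and microbead 1 was above all others. Against naive the log2 change was 4.14 (SE 0.97, adjusted p = 0.0819), and against sham 2.32 (SE 0.91, adjusted p = 0.425). Without microbead 1 these were 1.90 (adjusted p = 0.652) and 0.07. In DESeq2 the value against naive was called, with an adjusted p of 8.5e-05 and a range of 8.5e-05 to 0.652 over the alternatives. Sham retinas stood above naive ones by 1.82 on the log2 scale (SE 0.86, unadjusted p = 0.0476, adjusted p = 1).

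Mrpl55 (chr11:59202486-59206134), another mitochondrial protein without a bacterial counterpart, had 77.6, 41.2 and 34.1 CPM in microbead retinas, 21.5, 45.4 and 12.5 in contralateral retinas, 23.4, 13.3, 14.7 and 14.4 in sham retinas and 22.8, 16.3, 21 and 32.1 in naive retinas. With TMM scaling the microbead libraries were above the sham and naive ones, and contralateral 2 lay among them. Without it microbead 3 lay below naive 4. Against sham the difference was 1.63 on the log2 scale (SE 0.69, adjusted p = 0.458). Mrpl51 (chr6:125191801-125196269), which shares exon sequence with the microRNA gene Mir3098, had 48.1, 30.9 and 37.2 CPM in the microbead libraries, 26.4, 79.6 and 20.7 in the contralateral, 18.4, 22.9, 13.6 and 8.23 in the sham and 39.5, 26.3, 24.5 and 21.2 in the naive ones. It was above sham but overlapped naive, and its log2 change against sham was 1.29 (SE 0.68, adjusted p = 0.546).

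Mrpl52 (chr14:54426909-54429756) had 96.9, 36.4 and 55.1 CPM in microglia of microbead retinas, 54.0, 21.9 and 19.4 in those of contralateral retinas, 32.4, 29.8, 49.1 and 39.9 of sham retinas and 40.4, 21.4, 23.4 and 28.1 of naive retinas. Microbead 2 lay below naive 1, so the groups overlapped. The log2 change against naive was 1.14 (SE 0.59, adjusted p = 0.506), but without microbead 1 it was 0.67, and with the length trend removed -0.25. Mrpl46 (chr7:78775236-78783531) had 68.2, 27.7 and 20.6 CPM in microbead retinas, 20.3, 64.5 and 10.4 in contralateral retinas, 26.9, 13.1, 38.4 and 24.7 in sham retinas and 10.6, 14.5, 20.3 and 14.5 in naive retinas. With TMM scaling all microbead libraries were above naive, microbead 3 by less than 1 CPM. Without that scaling microbead 3 lay within the naive range. For Mrpl46 the log2 change against naive was 1.37 (SE 0.77, adjusted p = 0.549), and 0.66 without microbead 1. Its exons overlap those of Mrps11 on the other strand, and the sources used here do not state whether counting used strand.

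The members with the lowest changes were Mrpl50 and Mrps31 against sham and Mrps6 and Mrps27 against naive. Mrpl50 had 0.72, 27.6 and 7.82 CPM in the microbead libraries, 21.1, 0 and 44.9 in the contralateral, 48.5, 21.8, 23.4 and 19.3 in the sham and 64.1, 12.0, 18.1 and 3.62 in the naive ones. Its log2 change against sham was -1.21 (SE 1.36) with an adjusted p of 0.868. Mrps31 had 0, 13.8 and 6.33 CPM in microglia of microbead retinas, 15.0, 0.32 and 17.3 in those of contralateral retinas, 24.1, 18.9, 7.74 and 12.5 of sham retinas and 20.6, 16.6, 16.6 and 1.07 of naive retinas, and its change against sham was -1.20 (SE 1.41, adjusted p = 0.877). Both were near 0 in microbead 1, and their groups overlapped.

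Mrps6, a small subunit protein with a bacterial counterpart whose gene shares exon sequence with Slc5a3, had 0, 7.81 and 13.2 CPM in microbead retinas, 1.52, 59.4 and 11.6 in contralateral retinas, 7.25, 10.2, 7.21 and 10.4 in sham retinas and 31.0, 9.97, 16.3 and 20.1 in naive retinas. Its log2 change against naive was -1.43 (SE 1.26) with an adjusted p of 0.768. Mrps27, an RNA-binding protein of the pentatricopeptide type, had 0, 21.1 and 11.8 CPM in the microbead libraries, 11.8, 0 and 23.2 in the contralateral, 17.3, 30.1, 16.9 and 23.0 in the sham and 5.02, 35.2, 27.2 and 37.2 in the naive ones. For this gene the log2 change against naive was -1.23 (SE 1.36, adjusted p = 0.845). In both genes microbead 1 was at 0 and the groups overlapped, and without it the 4 changes of these low members were -0.70, -0.68, -0.90 and -0.69. Without microbead 2 they were -2.67 for Mrpl50, -2.26 for Mrps31 and -2.11 for Mrps27, and without microbead 3 the change of Mrps6 was -2.24.

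**Figure D3:**
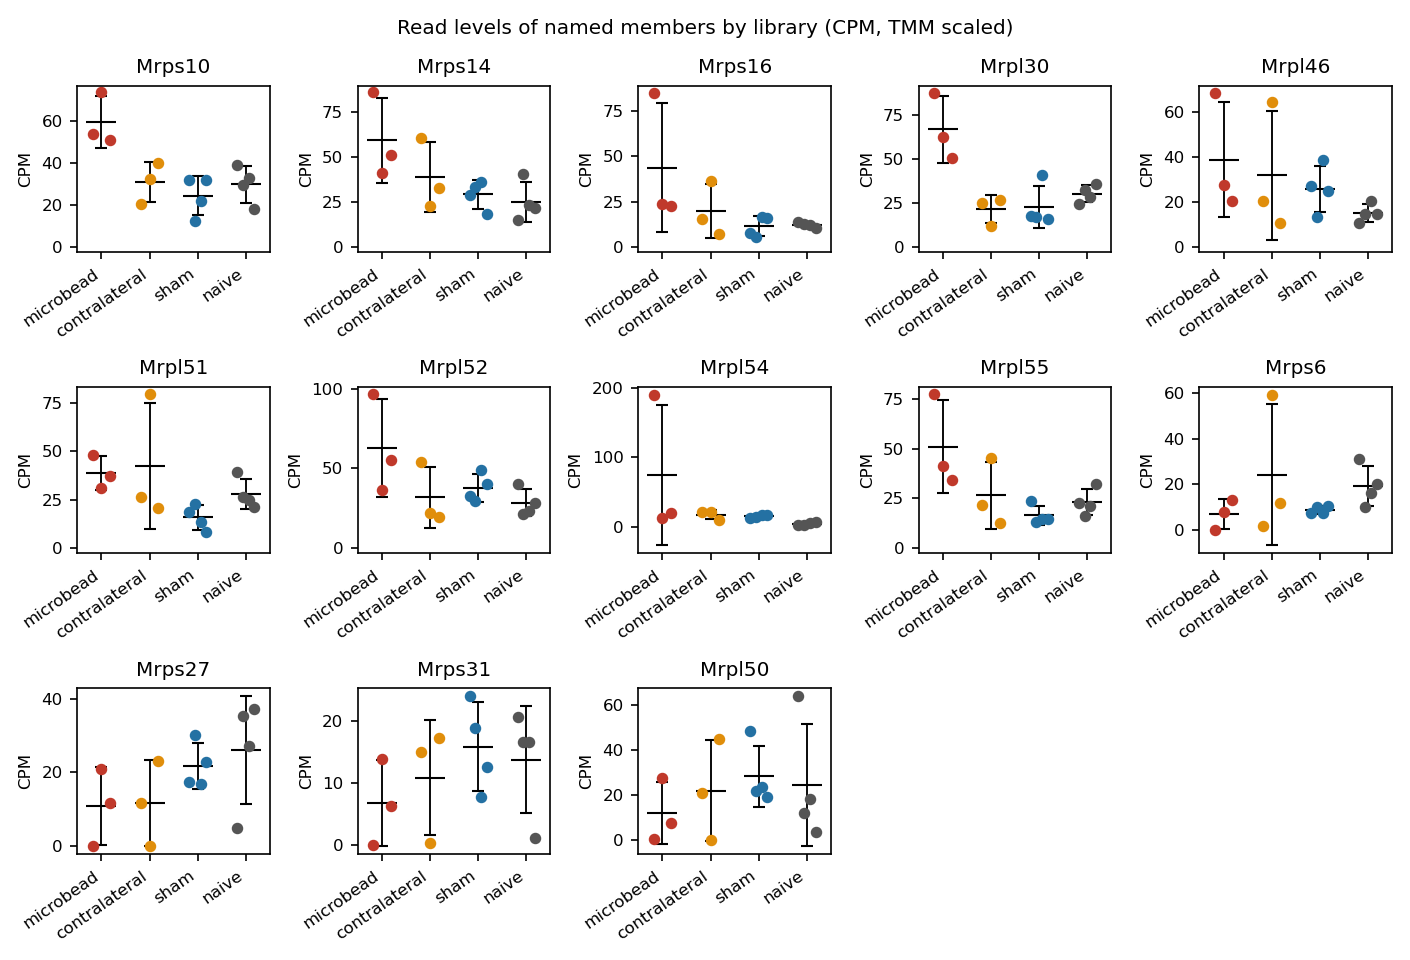
CPM (TMM scaled, y axes) of the 13 members with the smallest p or the lowest changes, in the 4 groups (x axes). Points are libraries, and the line and bar give the mean and SD. With this scaling Mrps10 and Mrpl30 have all 3 microbead libraries above the other 11. Without it microbead 3 lies below contralateral 3 for Mrps10 and below sham 3 for Mrpl30. Mrpl54 has 1 microbead library at 190 CPM and the others at 12.0 and 19.5.

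Transcript length moved with these results. The median length was 1012 bases over the members and 2116 bases over all genes tested. In each library, the log2 ratio to the naive mean was taken over genes of at least 10 CPM, and the median of 1328 genes above 4000 bases was subtracted from that of 863 genes of at most 1000 bases. The difference was 1.90, 0.79 and 1.26 in microbead retinas, 0.46, 0.87 and -0.28 in contralateral retinas, -0.05 to 0.15 in sham retinas and -0.27 to 0.16 in naive retinas. The median of the short transcripts thus stood above that of the long ones in the microbead libraries, and also in contralateral 1 and 2.

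Among the members the classes of up to 1500 bases stood above the longest one. The 16 members of at most 700 bases had median log2 fold changes of 0.64 against sham and 1.00 against naive, and the 23 of 700 to 1000 bases 0.80 and 0.69. The 21 of 1000 to 1500 bases had 0.58 and 0.40, and the 18 longer ones -0.05 and -0.03. Over all genes the same classes had 0.76 and 0.70, 0.39 and 0.39, 0.03 and 0.07, and, from 1500 to 4000 bases, -0.25 and -0.27. Across the 78 members the Spearman correlation of change and length was -0.38 against sham, -0.54 against naive and -0.38 against contralateral retinas, and over all genes -0.15, -0.17 and -0.09. The members share the same libraries, so these are descriptions.

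With the length trend removed from each library, the members' median was 0.21 against sham, with 0.04 over all genes, and 0.11 against naive, with 0.02 over all genes. In each comparison 45 of 78 then stood higher, 0 passed the test and 1 had an unadjusted p under 0.05. The small subunit medians were -0.08 and 0.02, and those of the large subunit 0.28 and 0.17. Members with bacterial numbers had 0.05 and 0.03, and the later numbers 0.62 and 0.36. The 16 members of at most 700 bases had -0.41 and -0.19, with 5 and 6 of them higher, and the longer classes, in order of length, 0.34 and 0.11, 0.43 and 0.17, and 0.14 and 0.26. The correlation with length became 0.19 against sham and 0.14 against naive. Whether length as such, RNA quality or another feature of short transcripts lies behind the gradient was not tested.

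**Figure D4:**
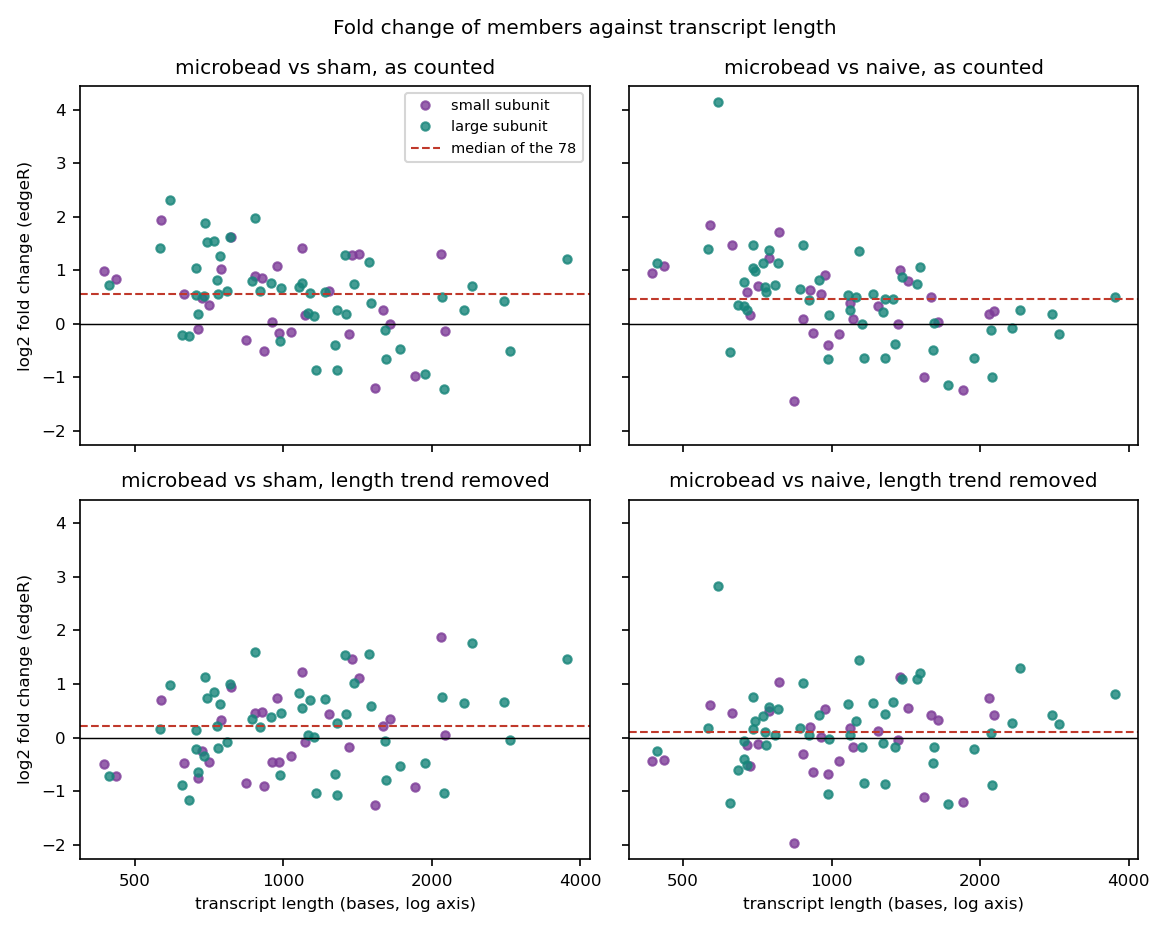
Log2 fold change of each of the 78 members (y axis) against transcript length in bases (x axis, log scale) for microbead against sham (left) and naive (right), as counted (top) and with the length trend removed (bottom). Dashed lines are medians, at 0.56 and 0.47 above and at 0.21 and 0.11 below; short members stand higher in the top panels, and this order is not seen in the lower ones.

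Against the contralateral retinas the members' median was 0.57, with -0.08 over all genes, and 50 of 78 stood higher in microbead libraries, against 46.9% of all genes. In edgeR 0 members passed, with a smallest adjusted p of 0.338 and 0.028% of all genes called, and 4 had an unadjusted p under 0.05, all higher in microbead, against 4.89% of all genes higher and 6.66% lower. These were Mrpl23, Mrpl30, Mrpl44 and Mrpl54, named after their values were seen. In 11 members the microbead libraries were above all contralateral ones, against 5.2% of all genes, and in 1, Mrpl49, below all, against 5.64%. Mrpl23, a large subunit protein with a bacterial counterpart, had 89.0, 17.5 and 30.2 CPM in microbead and 6.84, 2.52 and 13.6 in contralateral libraries, a difference of 2.56 on the log2 scale (SE 0.96, adjusted p = 0.338). For Mrpl30 the log2 change was 1.65 (SE 0.67), with an adjusted p of 0.372. DESeq2 called Mrpl23 and Mrpl30 (adjusted p = 0.0247 and 0.0385), 2 of 78 members beside 4.45% of all genes. With limma voom 0 members and 0.021% of all genes were called, and without microbead 1 the quasi-likelihood test left 0 at that p. With the length trend removed the median of the members was -0.02, against -0.18 over all genes, with 38 of 78 higher. If retinas of these 2 groups share mice, the p-values of this comparison leave that pairing out.

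In the contralateral retinas the members' medians lay near those of all genes in edgeR, but not with limma voom. There they were -0.34 against sham and -0.28 against naive, beside -0.08 and -0.12 over all genes. In edgeR the members' median against sham was -0.05, with -0.04 over all genes, and 38 of 78 were higher, against 48.2% of all genes. Against naive it was -0.08, with -0.06 over all genes, and 35 of 78 were higher, against 47.4%. In edgeR 0 members passed in either comparison, with smallest adjusted p of 0.963 and 0.949, and 0% of all genes passed. At an unadjusted p under 0.05, 2 members were higher and 1 lower against sham, where 2.79% and 2.07% of all genes were. Against naive 3 were higher and 1 lower, where 2.9% and 2.28% of all genes were. DESeq2 called 1 member, Mrpl37, against sham and 0 against naive, beside 0.56% and 0.546% of all genes, and limma voom called 0 in each, as it did 0% of all genes.

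Those members were Mrpl37, Mrpl4 and Mrps35 in both comparisons and Mrpl54 against naive, named after their values were seen. Mrpl37, a mitochondrion-specific large subunit protein, had 50.8, 215 and 36.5 CPM in contralateral, 21.4, 21.1, 29.0 and 13.7 in sham and 15.2, 33.3, 41.2 and 24.1 in naive libraries. The log2 change against sham was 2.24 (SE 0.64), with an adjusted p of 0.963 in edgeR and 0.0494 in DESeq2. Mrpl4, of the large subunit, had 55.9, 215 and 28.0 CPM in contralateral libraries, against 30.4 to 50.03 in sham and 26.7 to 39.1 in naive libraries. Both were highest in contralateral 2. Mrps35 had 7.42, 0 and 14.5 CPM in contralateral, 41.8, 33.8, 38.2 and 22.1 in sham and 17.2, 34.5, 39.2 and 50.1 in naive libraries, so its contralateral libraries were below all the others of these groups. In contralateral against sham retinas, 1 member was above all (2.04% of all genes) and 3 were below all (3.88%). Against naive retinas, 2 were above (2.49%) and 2 below (3.73%).

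In sham against naive retinas the members' median was -0.08, with -0.02 over all genes, 34 of 78 members were higher, against 48.7% of all genes, and in edgeR 0 passed, as did 0% of all genes, with 1 member, Mrpl54, higher at an unadjusted p under 0.05 and 0 lower, against 1.31% and 1.35% of all genes. DESeq2 and limma voom also called 0, beside 0.224% and 0% of all genes. In 2 members, Mrpl10 and Mrpl54, the sham libraries were above all naive ones, against 1.61% of all genes, and in 0 below, against 1.37%. Over the 4 groups jointly edgeR called 0 members and 0.224% of all genes, with a smallest member adjusted p of 0.195 and 3 members at an unadjusted p under 0.05, against 8.17% of all genes. DESeq2 called 2 jointly, Mrpl37 and Mrpl54, beside 2.95% of all genes, and limma voom 0, beside 0.609%.

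Other gene lists of mitochondrial translation had medians on both sides of 0. The 5 proteins of the mitochondrial ribosome that carry other names had medians of 0.93 against sham and 0.94 against naive. Among them Gadd45gip1 averaged 85.2 ± 94.3 CPM in microglia of microbead retinas, 30.5 ± 10.2 in those of contralateral retinas, 23.1 ± 3.79 of sham retinas and 27.2 ± 18.7 of naive retinas, which differed from naive by 1.64 on the log2 scale (SE 0.75, adjusted p = 0.463). Its microbead libraries had 194, 24.99 and 36.8 CPM, and only microbead 1 was above the naive range of 6.52 to 46.0. The 14 genes tested of the translation factor list had medians of -0.33 and -0.59, with 6 and 5 higher. In this list Slirp and Mtrf1 had the smallest p against naive, and both stood higher in microbead retinas. Their log2 changes were 1.77 and 3.84 (SE 0.75 and 1.87, adjusted p = 0.427 and 0.485), and 0.22 and 4.93 with the length trend removed. Both were highest in microbead 1, at 86.2 and 56.7 CPM. Mtfmt, which puts the formyl group on the initiator tRNA, averaged 2.99 ± 4.08 CPM in microbead retinas, 4.85 ± 3.20 in contralateral retinas, 22.6 ± 3.53 in sham retinas and 14.9 ± 3.56 in naive retinas (log2 change against naive -2.24, SE 1.23, adjusted p = 0.535). The 20 genes of tRNA charging had medians of 0.18 and -0.21, and the 23 of ribosome assembly and rRNA modification -0.46 and -0.34. Dhx30, an RNA helicase of that list, averaged 23.6 ± 19.7 CPM in the microbead libraries, 70.1 ± 42.4 in the contralateral, 63.9 ± 18.7 in the sham and 71.1 ± 20.7 in the naive ones, with a log2 change against naive of -1.57 (SE 0.62, adjusted p = 0.397). No gene of these 4 lists passed the test in edgeR.

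The 14 regulators of mitochondrial transcription and biogenesis tested, with Tfam, Nrf1, Gabpa and Yy1 among them, had medians of -0.17 against sham and -0.15 against naive, and 0 passed. Tfam, which packs and transcribes mitochondrial DNA, averaged 28.5 ± 29.4 CPM in microglia of microbead retinas, 16.8 ± 13 in those of contralateral retinas, 15.6 ± 7.73 of sham retinas and 12.9 ± 8.77 of naive retinas. The 23 genes of protein import had medians of 0.67 and 0.54, and 0 passed. Tomm20, an import receptor of the outer membrane, averaged 122 ± 77.5 CPM in microbead retinas, 49.9 ± 23.1 in contralateral retinas, 76.0 ± 14.2 in sham retinas and 65.3 ± 12.3 in naive retinas, or 0.90 on the log2 scale against naive (SE 0.46, adjusted p = 0.506).

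Genes of the respiratory chain and of the cytosolic ribosome had larger medians than the members. The 75 nuclear genes of the respiratory chain had medians of 0.92 against sham and 0.99 against naive. Cox4i1 and Cox8a, subunits of cytochrome c oxidase, passed in edgeR against naive (log2 fold change 2.24, SE 0.43, adjusted p = 0.0415, and 2.11, SE 0.42, adjusted p = 0.0426). The 80 cytosolic ribosomal protein genes tested had medians of 1.53 and 1.46, 80 and 79 stood higher, and 6 passed against naive. Of all genes 0.21% passed in that comparison. With the length trend removed, 0 genes of either list passed and the medians were 0.20 and 0.21 for the respiratory chain and 0.50 and 0.57 for cytosolic ribosomal proteins. Against naive, leaving out 1 library at a time gave 0 to 4 calls for the respiratory chain and 0 to 40 for the cytosolic ribosome. Over all genes these fits gave 0 to 168 calls. DESeq2 gave 14 and 61 and limma voom 3 and 55, beside 3.87% and 1.43% of all genes. The respiratory chain count was 0 without microbead 1 or any 1 of the sham or naive libraries, and the cytosolic count was 0 without sham 4 or any 1 of the naive libraries. The median length was 715 bases for the respiratory chain list and 681 for the cytosolic list, both shorter than the members' 1012.

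The 13 protein genes of the mitochondrial genome, the messages that the mitochondrial ribosome reads, had medians of 0.92 against sham and 0.98 against naive, and 0 passed in edgeR, with 4 at an unadjusted p under 0.05 and higher in each comparison. Their summed level was 7875, 10238 and 7951 CPM in the microbead libraries, 702, 1077 and 3613 in the contralateral, 4748 to 7310 in the sham and 3743 to 5482 in the naive ones. With TMM scaling the microbead libraries were the highest 3 and the contralateral libraries the lowest 3 of the 14. Without it microbead 3 lay below sham 1 and contralateral 3 above naive 1, so these ranks rest on the scaling. In the edgeR fit of the contralateral retinas the members' medians stayed near 0 while this list had medians of -1.66 against sham and -1.37 against naive. With the length trend removed the microbead medians of this list were 0.26 and 0.48. No test of the members against another list was made.

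**Figure D5:**
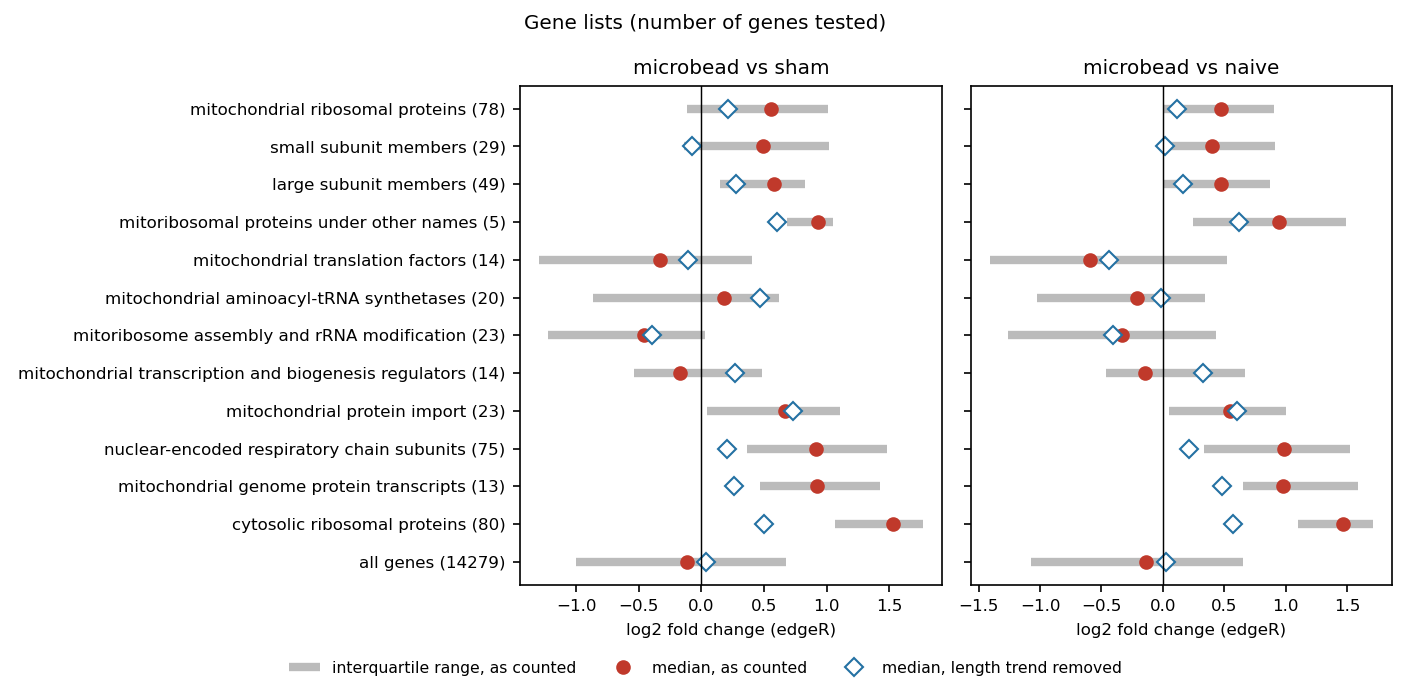
Median log2 fold change (x axis) of the members and of related gene lists, with all genes in the bottom row, for microbead against sham (left) and naive (right). Filled points are medians as counted, bars interquartile ranges and open diamonds medians with the length trend removed; cytosolic ribosomal proteins lie at 1.53 and 1.46, the members at 0.56 and 0.47, and translation factors at -0.33 and -0.59.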

How the data were processed

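Members and gene lists were chosen with earlier results of these data known. Each library has a table of expected counts, deposited as estimated reads per gene without scaling to depth, per the file headers, and of FPKM, the authors' values per length and mapped reads. Tools named in the submitters' processing notes, with no role stated, are DESeq2 1.30.1, R 4.0.3 and Salmon 1.4.0, and the build is mm10. The sources used here do not state which program wrote the tables or whether strand was used. Names came from the authors' series-wide FPKM table (47273 identifiers), and coordinates from GENCODE M21.

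Expected counts were rounded and fitted in R 4.3.3 with edgeR 4.0.16: filterByExpr with a minimum count of 10, TMM factors, 1 robust quasi-likelihood model with 1 coefficient per group over the 14 libraries and 10 residual degrees of freedom, two-sided tests, and Benjamini-Hochberg adjustment over 14279 genes at 0.05. CPM are TMM scaled, and marker sums are plain CPM. Counts of members or genes whose libraries did not overlap rest on the TMM scaled CPM. Standard errors are the log2 fold change over the root of F. Length is the mean of the tables' length column. The length trend was fitted in each library by lowess (span 0.5) and removed through offsets. The values fitted by length were each gene's log2 CPM less its mean over the libraries, for genes with a mean of at least 10 CPM. The steps were also run on simulated counts. The simulated spread between libraries was smaller than the common spread of these data, and the planted changes were larger than the members' medians. That run therefore does not show how well changes of the size seen here can be found.

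Total counts were 1.34 to 14 M reads a library, and 43 to 355 reads for the median member. SDs cover libraries, and reads without molecular identifiers are not independent molecules. Named members are those past the threshold (0), the 6 smallest p and the 2 lowest changes (mean of at least 10 CPM) in microbead against sham and against naive, the 5 highest by FPKM, the 2 shortest and 2 longest, and a panel of known roles. Of other lists, up to 3 genes with the smallest p against naive could be named. Alternatives were no filter or a minimum of 50 reads, DESeq2's size factors, DESeq2 1.42.0 itself (Wald, and likelihood ratio jointly), the replicate number as a block, the compared groups alone, limma 3.58.1 (voom, quality weights), the length trend removed, identifiers outside the authors' table left out, libraries with few genes left out, and each library left out. TMM against no scaling was added after seeing the data. Exons of 33 members overlap another gene, 28 on the other strand, so their reads may be shared.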

Additional observations from a re-analysis of the deposited data

Results flagged for a closer look

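Groups of 4 libraries were checked for a value far from the others of its group, by a rule that chance meets in about 1 in 20 groups. Of 61 groups checked, 5 were met, all in sham or naive libraries, since the groups of 3 were not tested. Mrpl30 had 40.7 CPM in sham 3, against 15.7 to 17.3 in the other sham libraries. With TMM scaling this sham library was below all 3 microbead libraries, and without it sham 3 lay above microbead 3. Mrpl55 had 23.4 CPM in sham 1, against 13.3 to 14.7 in the others, and Mrpl50 had 48.5 CPM in the same library, against 19.3 to 23.4. Mrps18b had 13.4 CPM in sham 4, against 50.5 to 55.8 in the other sham libraries. In naive 4, 2 members (Mrpl1 and Mrps22) were at 0 reads, against 0 in the other naive libraries.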

How the results depend on the processing

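Of 330 values of the members' medians and counts under an alternative, 305 stayed within the limits set, and the 25 others follow. The members' median moved when it shifted by more than 0.17 (log2), the pooled SD of the library medians. Without scaling factors, an alternative chosen after seeing the data, it was 0.36 (microbead against sham), 0.17 (microbead against naive) and -0.29 (contralateral against naive), while the median of all genes was -0.39, -0.43 and -0.22, and 47 and 48 members stood higher in the microbead comparisons. With the length trend removed it was 0.21, 0.11, -0.024 (microbead against contralateral) and 0.20 (contralateral against sham), the first 3 below the values as counted. The median of all genes was then 0.04, 0.02, -0.18 and 0.21. In all, 5 medians of the members took the other sign. These were the -0.024 and 0.20 just given, and contralateral against naive at 0.031 with the length trend removed. The others were contralateral against sham at 0.042 and 0.048 without sham 1 and sham 3. Without the 2 libraries of few genes the members' median was 0.33 (microbead against sham). With limma voom it was 0.38 (microbead against sham), -0.34 (contralateral against sham) and -0.28 (contralateral against naive). The median of all genes was -0.19, -0.08 and -0.12 in that fit. In these contralateral comparisons 22 and 23 of 78 members stood higher. Leaving out 1 library at a time gave 0.33 to 0.70 (microbead against sham), 0.32 to 0.48 (microbead against naive), 0.37 to 0.77 (microbead against contralateral), -0.23 to 0.048 (contralateral against sham) and -0.29 to -0.077 (contralateral against naive).

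The count of members past the threshold was 0 in every comparison as fitted. DESeq2 called 1 in microbead against sham, 1 in microbead against naive, 2 in microbead against contralateral, 1 in contralateral against sham and 2 jointly, beside 3.13, 3.87, 4.45, 0.56 and 2.95% of all genes. Without a filter it was 1 in microbead against naive, beside 162 of all 25656 genes tested. Without microbead 2 or microbead 3 it was also 1, beside 52 of 15458 and 168 of 15306 genes. Leaving out 1 library thus gave 0 to 1 member. That member was Mrpl54, whose adjusted p was 0.0221 without a filter, and 0.0400 and 0.0328 without microbead 2 and 3, in a range of 8.5e-05 to 0.652. Leaving out 1 library moved the count at an unadjusted p under 0.05 to 1 to 7 (sham), 0 to 5 (naive) and 0 to 10 (contralateral) for the microbead comparisons. The share of all genes at that p was not counted in these fits. One named change turned direction, that of Mrpl52 against naive, at -0.25 with the length trend removed. The cause was not tested, except that the count rises without a filter while more genes are tested. The labels do not show that the replicate numbers pair libraries, and the correlation of deviations over 19 pairs of same-numbered libraries ran from -0.05 to 0.14, with 3 above 0.1. With the replicate block the medians were 0.46, 0.33 and 0.59 for microbead against sham, naive and contralateral and -0.24 for contralateral against sham, the last the only one that moved, and 0 members were called. Depth limits microbead 1, where the median member had 43 reads.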
